A study of Homo sapiens with 12 samples.

Results

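The endoplasmic reticulum (ER) chaperones and the genes of the unfolded protein response were followed in total and heavy polysomal (HP) RNA of HCT116 cells. The 40 genes were chosen by name, and their Ensembl identifiers were matched to symbols in GENCODE release 44. All 40 were among the 62703 genes counted, and all 40 were among the 15920 with enough counts to be tested. They fell into 5 roles, with 9 luminal chaperones and cofactors, 8 lectin chaperones and disulfide enzymes, 5 sensors and transcription factors, 7 genes of ER-associated degradation and 11 of the translocon and signal peptidase.

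The 12 libraries came from HCT116, a human colorectal cancer cell line, transfected for 48 h with 2 nM of an siRNA against hnRNP U (siHNRNPU) or of a control siRNA (siCtr). HP RNA (RNA sedimenting with many ribosomes after a brief cycloheximide treatment) and total RNA were taken from each, giving 4 conditions with 3 biological replicates. The labels call the siCtr cells wild-type and the others HNRNPU silencing. The study used a pair of hnRNP U siRNA sequences and does not state which one these libraries had, so a change below belongs to the transfected siRNA in a single cell line.

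The ER folds proteins that enter the secretory pathway. The Sec61 channel admits them, signal peptidase removes their signal peptides, chaperones led by BiP (HSPA5) and by the lectins calnexin and calreticulin hold them while they fold, protein disulfide isomerases form their disulfide bonds, and misfolded molecules are returned to the cytosol and degraded. When unfolded protein accumulates, the sensors IRE1 (ERN1), ATF6 and PERK are released from BiP. IRE1 splices XBP1 mRNA, ATF6 is cleaved to a transcription factor, and PERK phosphorylates the initiation factor eIF2α, which favours translation of ATF4. XBP1 and ATF6 raise transcription of chaperone and degradation genes through the ER stress response element (ERSE) and its relative ERSE-II.

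These elements are shown first because several of the 40 genes share them. They were sought on both strands as CCAAT, then 9 free bases, then CCACG (ERSE), and as ATTGG, 1 free base and CCACG (ERSE-II), from 250 bases before to 50 after the start site given by RefSeq (GRCh38.p14). Promoters were found for 37 of the 40 genes, and PDIA3, DERL1 and SPCS1 had no entry. ERSE stood in 8 of the 37 promoters (21.6%), against 25 of 27305 genes in the promoter table (0.0916%). ERSE-II stood in 3 of them (8.11%), against 19 of the 27305 genes (0.0696%). The 40 genes were chosen by name for ER folding and this response, which acts through these motifs. A higher share than over all genes was therefore built into the choice. Neither motif contains the other. Each ERSE is written below 5′ to 3′ on its own strand, with the fixed bases in capitals.
HSPA5 at chr9:125241391-125241409 on the minus strand: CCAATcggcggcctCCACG
HSP90B1 at chr12:103930216-103930234 on the plus strand: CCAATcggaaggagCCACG
HSP90B1 at chr12:103930321-103930339 on the minus strand: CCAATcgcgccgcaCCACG
CRELD2 at chr22:49918554-49918572 on the minus strand: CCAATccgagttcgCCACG
CALR at chr19:12938384-12938402 on the minus strand: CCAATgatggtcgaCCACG
CANX at chr5:179698778-179698796 on the plus strand: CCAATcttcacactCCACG
PDIA6 at chr2:10812853-10812871 on the minus strand: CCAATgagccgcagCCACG
ERO1B at chr1:236282183-236282201 on the plus strand: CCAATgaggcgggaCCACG
XBP1 at chr22:28800603-28800621 on the minus strand: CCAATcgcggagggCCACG

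The ERSE-II matches follow in the same form.
HYOU1 at chr11:119057380-119057390 on the plus strand: ATTGGaCCACG
HYOU1 at chr11:119057274-119057284 on the plus strand: ATTGGaCCACG
SDF2L1 at chr22:21642114-21642124 on the minus strand: ATTGGtCCACG
HERPUD1 at chr16:56932025-56932035 on the plus strand: ATTGGgCCACG

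HSP90B1 and HYOU1 each held a pair of matches. The 250 bases before the start site are given for HSPA5 and HSP90B1, in the direction of the gene and with the fixed bases of ERSE in capitals. Both are chaperones whose transcripts rose with siHNRNPU. Other members did not follow them: DNAJB9 and EDEM1 fell, and HERPUD1 and DNAJC3 did not reach an adjusted p under 0.05 by edgeR. A match is a string of letters in this window and was not tested for binding.
HSPA5 at chr9:125241344-125241593 on the minus strand: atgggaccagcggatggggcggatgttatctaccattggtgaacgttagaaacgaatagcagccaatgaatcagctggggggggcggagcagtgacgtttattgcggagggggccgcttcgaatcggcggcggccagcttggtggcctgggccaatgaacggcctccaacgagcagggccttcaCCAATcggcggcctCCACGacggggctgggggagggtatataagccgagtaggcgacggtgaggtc
HSP90B1 at chr12:103930160-103930409 on the plus strand: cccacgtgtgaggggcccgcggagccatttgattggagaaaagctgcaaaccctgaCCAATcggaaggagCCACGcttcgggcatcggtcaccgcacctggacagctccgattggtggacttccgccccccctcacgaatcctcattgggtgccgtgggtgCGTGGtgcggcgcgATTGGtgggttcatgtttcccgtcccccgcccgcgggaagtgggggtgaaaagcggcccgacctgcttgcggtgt

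Library totals ran from 30305012 to 39761103 counts. HNRNPU, the target of the siRNA, had 82.4, 75.2 and 77.1 CPM (counts scaled to library size, with TMM factors over the 12 libraries) in siHNRNPU HP RNA, against 1022, 1145 and 1074 CPM in siCtr HP RNA. In total RNA HNRNPU had 168, 149 and 160.4 CPM with siHNRNPU, against 992, 1106 and 986 CPM with siCtr. By edgeR's quasi-likelihood test its log2 fold change was −3.82 in HP RNA (adjusted p = 3.84e-18) and −2.70 in total RNA (adjusted p = 3.06e-15). The epithelial markers EPCAM, CDH1, KRT8, KRT18 and KRT19 were at 55.3 CPM or more in every library. Of the fibroblast, immune and endothelial markers, COL1A1 ran from 6.68 to 17.4 CPM and the other 8 stayed at or below 0.387 CPM. Reads were counted without molecular identifiers, and p-values measure the spread between the 3 replicates.

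The siRNA comparison asked whether ER genes changed in abundance when hnRNP U was silenced. With siHNRNPU, the chaperones HSPA5, HSP90B1, HYOU1, DNAJB11, CALR and CANX and the sensors ATF6 and ATF6B rose in both kinds of RNA, whereas SPCS3, a subunit of signal peptidase, and DNAJB9, a BiP cofactor, were lower by more than any other member in both kinds of RNA. Changes were small: 38 of the 40 genes had an absolute log2 fold change under 0.5 in HP RNA, and 38 had one in total RNA. At an adjusted p under 0.05 in edgeR, 14 genes were higher and 8 lower in HP RNA (22 called, 55.0%), where 51.7% of all genes tested were called, 25.5% higher and 26.3% lower. In total RNA 17 were higher and 6 lower (23 called, 57.5%), where 57.3% of all genes were called, 28% higher and 29.3% lower. The share called was therefore near that of all genes. The median log2 fold change of the 40 was 0.08 in HP RNA and 0.08 in total RNA, against 0.01 and 0.00 over all genes tested, and in HP RNA it was 0.04 without siCtr replicate 2. In bulk RNA, fewer cells expressing a gene and less RNA per cell cannot be told apart.

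Of the 40 genes, 20 were called in both kinds of RNA in the same direction, 14 higher and 6 lower. The share of all genes called in both was not computed. It was 51.7% in HP RNA and 57.3% in total RNA taken singly. ERO1B and XBP1 were called in HP RNA alone and SDF2L1, MANF and PDIA4 in total RNA alone, which does not show a difference between the fractions. The other 15 were called in neither. With the replicate number as a block no call was lost, and further genes passed the threshold by edgeR. In HP RNA these were PDIA4 (adjusted p = 0.00967), OS9 (0.00554), SEC61G (0.00351), SEL1L (0.0436) and DERL2 (0.0455). In total RNA they were XBP1 (0.0245), ERO1B (0.0492), PDIA3 (0.018), OS9 (0.016) and SEC63 (0.0375). For each gene called in HP RNA the 3 siHNRNPU libraries did not overlap the 3 siCtr libraries. In total RNA this held for 22 of the 23, EDEM1 being the exception. Of the genes not called, SEL1L, DERL2 and SEC61G in HP RNA and XBP1 in total RNA did not overlap either. Called genes were picked by p-values from these libraries, so their lack of overlap, here or by gene below, adds no separate support. The share of all genes without overlap was not computed. Together the 40 genes took 1.35% ± 0.05 of the counts in siHNRNPU HP RNA and 1.25% ± 0.07 in siCtr HP RNA (SD, n = 3 each). They took 1.09% ± 0.02 in siHNRNPU total RNA and 1.00% ± 0.03 in siCtr total RNA (SD, n = 3 each).

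**Figure D1:**
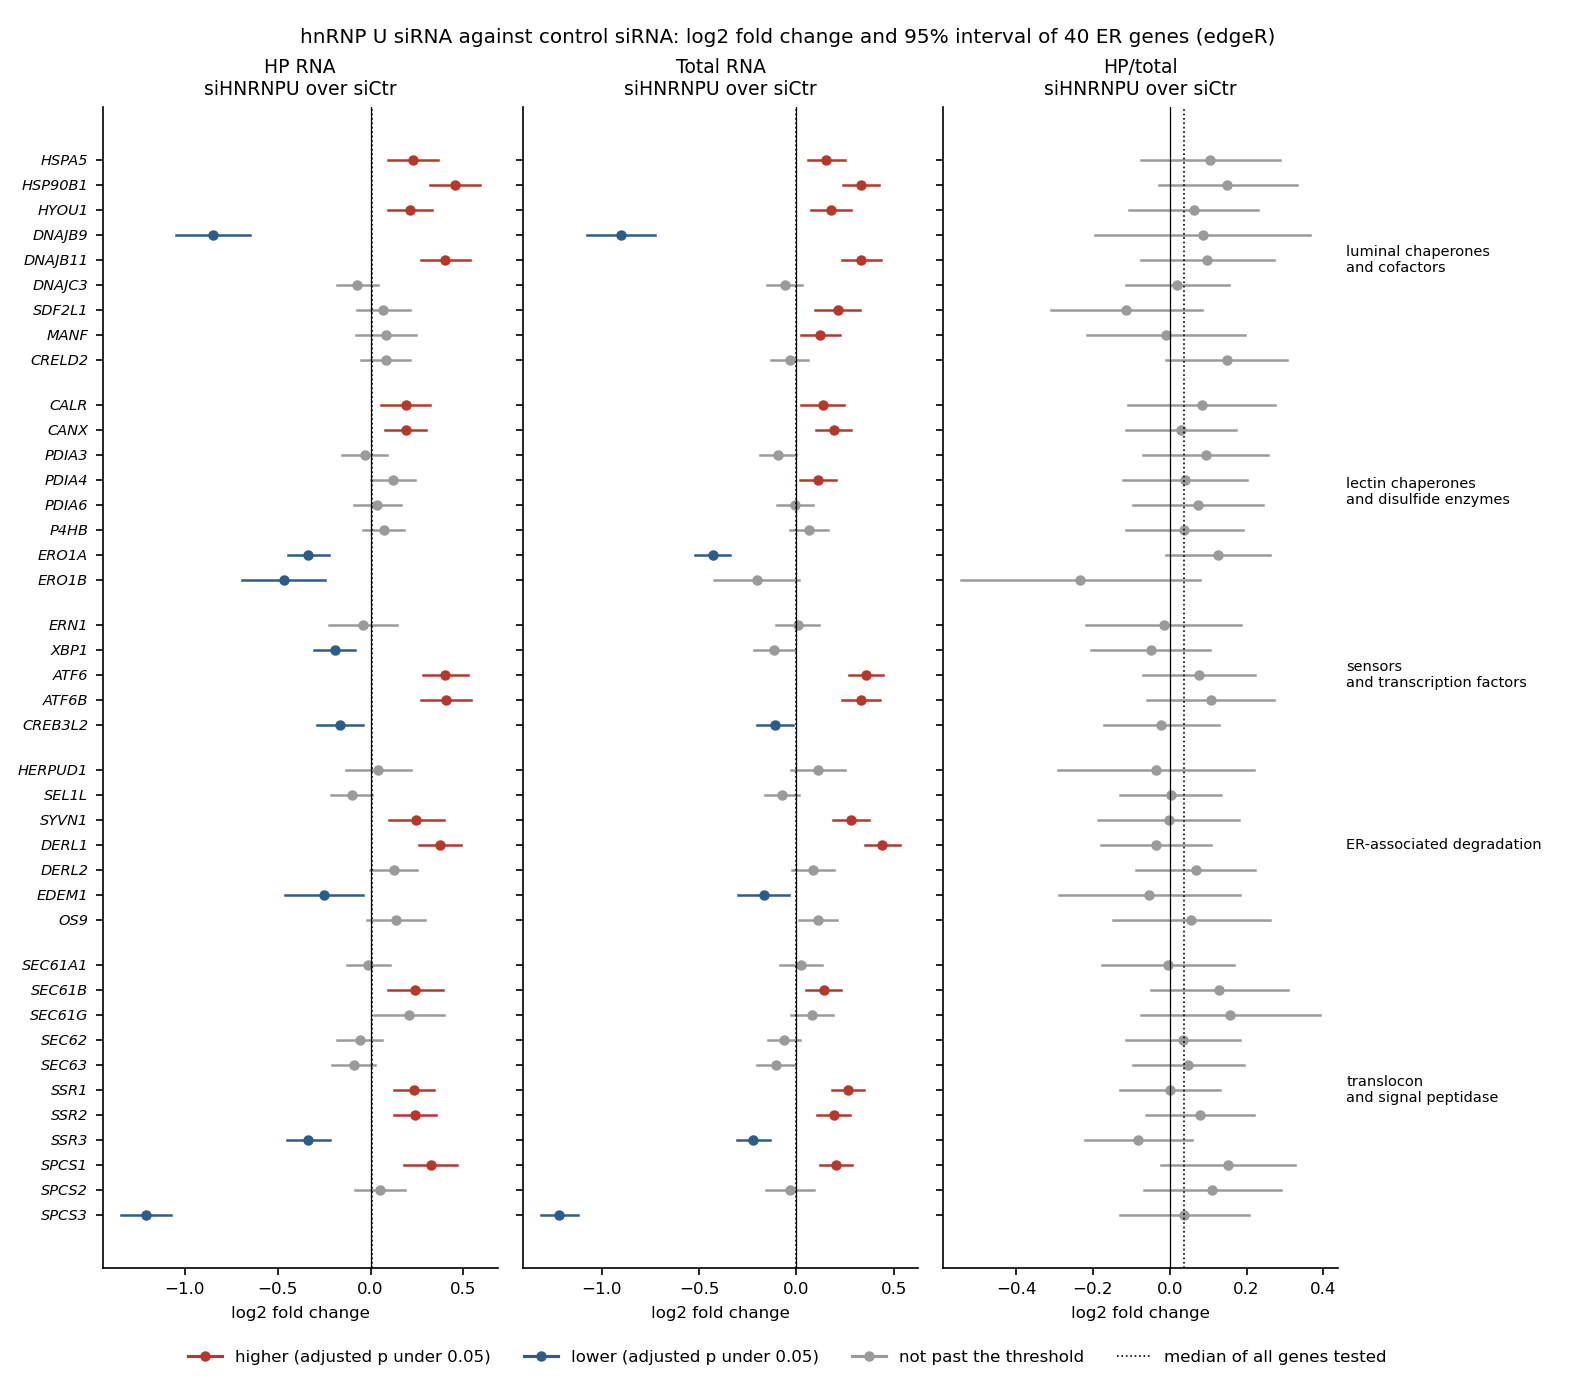
Log2 fold change of siHNRNPU over siCtr with its 95% interval (horizontal axis) for each of the 40 ER genes (rows, grouped by role) in HP RNA, total RNA and their ratio, from edgeR fits to 3 libraries per condition. SPCS3 and DNAJB9 lie far to the left in HP and total RNA, and every interval of HP/total includes 0.

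Among the luminal chaperones, HSPA5, HSP90B1, HYOU1 and DNAJB11 rose with siHNRNPU in both fractions. HSPA5, the ER Hsp70 known as BiP, had 1251, 1359 and 1271 CPM in siHNRNPU HP RNA, against 944, 1146 and 1144 CPM in siCtr HP RNA. In total RNA HSPA5 had 959, 1038 and 997 CPM with siHNRNPU, against 861, 922 and 899.5 CPM with siCtr. Each siHNRNPU library lay above each siCtr library of its fraction, and siCtr HP replicate 1 was the lowest of the HP libraries. The log2 fold change was 0.23 in HP RNA (SE 0.06, adjusted p = 0.0062) and 0.15 in total RNA (SE 0.04, adjusted p = 0.00706, edgeR). Without siHNRNPU replicate 2 the adjusted p of HSPA5 in total RNA was 0.0537.

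HSP90B1, the ER Hsp90 known as GRP94, had 1512, 1673 and 1569 CPM in siHNRNPU HP RNA, against 995, 1202 and 1192 CPM in siCtr HP RNA. In total RNA HSP90B1 had 1141, 1193 and 1188 CPM with siHNRNPU, against 896, 976 and 915 CPM with siCtr. The groups did not overlap, and the log2 fold change of 0.45 in HP RNA (SE 0.06, adjusted p = 1.13e-05, edgeR) was the highest of the 40 there. In total RNA it was 0.33 (SE 0.04, adjusted p = 6.78e-06, edgeR). DNAJB11 (ERdj3), a cofactor that brings unfolded chains to BiP, had 146.5, 156 and 151 CPM in siHNRNPU HP RNA, against 100.8, 112 and 121 CPM in siCtr HP RNA. In total RNA DNAJB11 had 84.3, 85.9 and 88.2 CPM with siHNRNPU, against 64.5, 72.8 and 67.1 CPM with siCtr. Its log2 fold change was 0.40 in HP RNA (adjusted p = 2.88e-05) and 0.33 in total RNA (adjusted p = 1.48e-05, edgeR). HYOU1 (GRP170), a nucleotide exchange factor of BiP, also rose, with log2 fold changes of 0.21 and 0.18 in HP and total RNA.

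**Figure D2:**
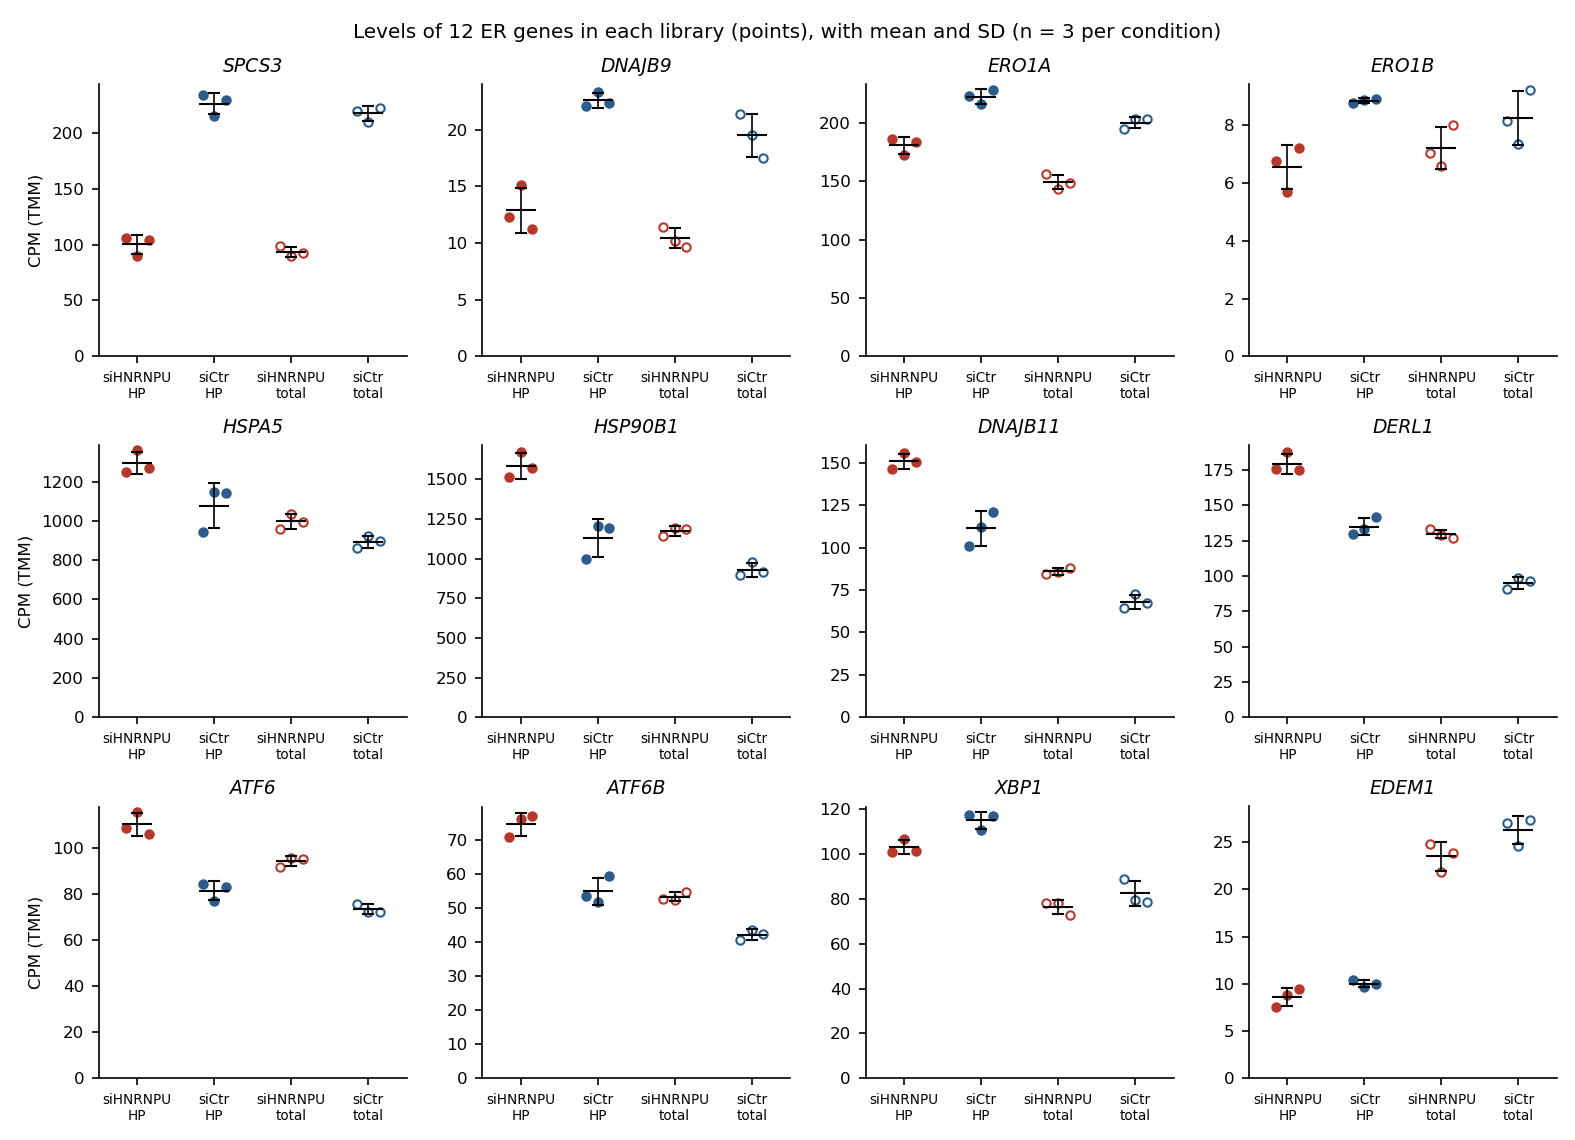
Level in CPM (vertical axis, TMM scaling, starting at 0) of 12 ER genes in each library, with siHNRNPU in red, siCtr in blue, HP RNA as filled and total RNA as open points, and with mean and SD of 3 libraries. SPCS3 and DNAJB9 are lower in all 6 siHNRNPU libraries, and EDEM1 is lower in HP than in total RNA under both siRNAs.

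DNAJB9 (ERdj4), a BiP cofactor that is itself induced by XBP1 and holds IRE1 inactive, went the other way. It had 12.3, 15.1 and 11.2 CPM in siHNRNPU HP RNA, against 22.1, 23.3 and 22.4 CPM in siCtr HP RNA. In total RNA DNAJB9 had 11.4, 10.2 and 9.69 CPM with siHNRNPU, against 21.4, 19.5 and 17.5 CPM with siCtr. No siHNRNPU library reached the level of a siCtr library. The log2 fold change was −0.85 in HP RNA (SE 0.09, adjusted p = 7.31e-07) and −0.90 in total RNA (SE 0.08, adjusted p = 1e-07, edgeR), a 1.8-fold and a 1.87-fold reduction.

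Of the other luminal genes, SDF2L1 and MANF rose in total RNA and were not called in HP RNA. SDF2L1, which forms a complex with DNAJB11, had 79.6, 67.4 and 81.1 CPM in siHNRNPU HP RNA, against 71.7, 68.2 and 72.5 CPM in siCtr HP RNA, and these overlapped. In total RNA SDF2L1 had 70.9, 67.3 and 71.7 CPM with siHNRNPU, against 54.4, 64.4 and 61.9 CPM with siCtr. It rose in total RNA (0.21, adjusted p = 0.00378, edgeR) and had 0.07 in HP RNA (adjusted p = 0.418). MANF, a BiP-associated protein, rose in total RNA (0.12, adjusted p = 0.0347) and had 0.08 in HP RNA (adjusted p = 0.383). The call for MANF in total RNA was lost without siCtr replicate 1 (adjusted p = 0.142) or siHNRNPU replicate 3 (adjusted p = 0.122), and in 1 fit over all 12 libraries. DNAJC3 (p58IPK), a BiP cofactor, and CRELD2, an ER-stress-inducible protein, were called in neither fraction. DNAJC3 had log2 fold changes of −0.07 in HP RNA (95% interval −0.18 to 0.04) and −0.06 in total RNA (−0.15 to 0.03). CRELD2 had 0.08 in HP RNA (−0.05 to 0.21) and −0.04 in total RNA (−0.13 to 0.06).

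Of the lectin chaperones and disulfide enzymes, both lectins rose, and most isomerases were not called. CALR (calreticulin) and CANX (calnexin) retain glycoproteins with trimmed sugars until they fold. CANX, given by library after its values were seen, had 1528, 1665 and 1598 CPM in siHNRNPU HP RNA, against 1280.2, 1404 and 1416 CPM in siCtr HP RNA. In total RNA CANX had 1196, 1257 and 1241 CPM with siHNRNPU, against 1047, 1106 and 1072 CPM with siCtr. Its log2 fold change was 0.19 in both (adjusted p = 0.00544 in HP RNA and 0.00091 in total RNA, edgeR).

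CALR had a log2 fold change of 0.19 in HP RNA (adjusted p = 0.0176) and 0.14 in total RNA (adjusted p = 0.0342, edgeR). Each call was lost in some fits that left out 1 library. In HP RNA its adjusted p was 0.0988 without siCtr replicate 1, 0.0712 without siHNRNPU replicate 2 and 0.0509 without siHNRNPU replicate 3. The log2 fold changes of these fits were 0.11, 0.16 and 0.18. In total RNA the adjusted p of CALR was 0.161 without siCtr replicate 1, 0.084 without siHNRNPU replicate 2 and 0.0823 without siHNRNPU replicate 3. Here the log2 fold changes were 0.07, 0.14 and 0.13. The call in total RNA was also lost in 1 fit over all 12 libraries. PDIA4 (ERp72), a disulfide isomerase, rose in total RNA (0.11, adjusted p = 0.0427), and the call was lost in 4 of the 6 fits that left out a library, with adjusted p from 0.0727 without siCtr replicate 3 through 0.106 without siHNRNPU replicate 2 and 0.11 without siHNRNPU replicate 3 to 0.171 without siCtr replicate 1. In HP RNA PDIA4 had 0.12 (adjusted p = 0.0863), which passed the threshold without siHNRNPU replicate 1 (adjusted p = 0.0361) or siCtr replicate 3 (adjusted p = 0.047). With 1 fit over all 12 libraries PDIA4 lost the call in total RNA and gained one in HP RNA.

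PDIA3 (ERp57), PDIA6 and P4HB, isomerases that form and rearrange disulfide bonds, were called in neither fraction. In HP RNA their log2 fold changes were −0.03 for PDIA3 (95% interval −0.15 to 0.09), 0.04 for PDIA6 (−0.09 to 0.17) and 0.07 for P4HB (−0.04 to 0.18). In total RNA they were −0.10 for PDIA3 (−0.19 to −0.001), −0.01 for PDIA6 (−0.10 to 0.09) and 0.06 for P4HB (−0.04 to 0.16). PDIA3 had an adjusted p of 0.0767 in total RNA, and 0.0162 without siCtr replicate 1.

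Of the oxidases that recharge disulfide isomerases, ERO1A fell in both fractions and ERO1B in HP RNA. ERO1A had 186, 173 and 184 CPM in siHNRNPU HP RNA, against 224, 216 and 228 CPM in siCtr HP RNA. In total RNA ERO1A had 156, 144 and 148 CPM with siHNRNPU, against 195, 203 and 203 CPM with siCtr. It fell by 0.33 in HP RNA (SE 0.05, adjusted p = 3.59e-05) and by 0.43 in total RNA (SE 0.04, adjusted p = 2.39e-07) on the log2 scale (edgeR). ERO1B was among the weakest of the 40, with 6.77, 5.7 and 7.21 CPM in siHNRNPU HP RNA, against 8.77, 8.87 and 8.93 CPM in siCtr HP RNA. In total RNA ERO1B had 7.04, 6.6 and 8.0 CPM with siHNRNPU, against 8.16, 7.36 and 9.24 CPM with siCtr, and these overlapped. ERO1B fell by 0.47 on the log2 scale in HP RNA (SE 0.11, adjusted p = 0.0013) and had −0.21 in total RNA (SE 0.10, adjusted p = 0.10, edgeR). In total RNA ERO1B passed the threshold without siCtr replicate 2 (adjusted p = 0.0341) or siHNRNPU replicate 3 (adjusted p = 0.0396).

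The sensors and transcription factors did not move together. ATF6 had 109, 116 and 106 CPM in siHNRNPU HP RNA, against 84.4, 76.8 and 83.0 CPM in siCtr HP RNA. In total RNA ATF6 had 91.5, 95.5 and 95.1 CPM with siHNRNPU, against 75.7, 71.9 and 72.2 CPM with siCtr. ATF6 rose by 0.40 on the log2 scale in HP RNA (SE 0.06, adjusted p = 1.44e-05) and by 0.36 in total RNA (SE 0.04, adjusted p = 1.74e-06, edgeR). ATF6B, its paralogue, had 70.7, 75.9 and 77.0 CPM in siHNRNPU HP RNA, against 53.4, 51.7 and 59.4 CPM in siCtr HP RNA. In total RNA ATF6B had 52.5, 52.4 and 54.7 CPM with siHNRNPU, against 40.5, 43.6 and 42.3 CPM with siCtr. It rose as well (0.41 in HP RNA, adjusted p = 3.76e-05, and 0.33 in total RNA, adjusted p = 1.13e-05, edgeR). The ATF6B locus overlaps TNXB on the same strand, so its counts are uncertain.

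XBP1 had 101.0, 107 and 101.5 CPM in siHNRNPU HP RNA, against 117.5, 111 and 117 CPM in siCtr HP RNA. In total RNA XBP1 had 78.3, 78.0 and 72.9 CPM with siHNRNPU, against 88.9, 79.6 and 78.6 CPM with siCtr. The siHNRNPU libraries lay below the siCtr libraries in both fractions, by a small margin in total RNA. XBP1 fell by 0.19 on the log2 scale in HP RNA (SE 0.05, adjusted p = 0.0057) and had −0.11 in total RNA (SE 0.05, adjusted p = 0.0641, edgeR). In total RNA it passed the threshold without siCtr replicate 2 (adjusted p = 0.0397) or siCtr replicate 3 (adjusted p = 0.0475). Gene counts do not separate spliced from unspliced XBP1 mRNA. ERN1, which encodes IRE1, had log2 fold changes of −0.04 in HP RNA (95% interval −0.22 to 0.14) and 0.01 in total RNA (−0.10 to 0.12) and was not called. CREB3L2, a membrane-bound transcription factor known in mouse for secretory capacity in cartilage, fell by 0.16 in HP RNA (adjusted p = 0.0269) and by 0.11 in total RNA (adjusted p = 0.0464). In HP RNA CREB3L2 lost the call without replicate 1 of siHNRNPU (adjusted p = 0.148) or of siCtr (adjusted p = 0.0836). In total RNA it did so without replicate 1 of siHNRNPU (0.245), replicate 2 of siHNRNPU (0.0665), replicate 2 of siCtr (0.0509) or replicate 3 of siCtr (0.174).

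In ER-associated degradation, DERL1 and the ubiquitin ligase SYVN1 (HRD1) rose and EDEM1 fell. DERL1, a derlin of the channel through which misfolded proteins leave the ER, had 175.5, 188 and 175 CPM in siHNRNPU HP RNA, against 129.8, 133.5 and 142 CPM in siCtr HP RNA. In total RNA DERL1 had 133, 129 and 127 CPM with siHNRNPU, against 90.6, 98.4 and 96.7 CPM with siCtr. Its log2 fold change was 0.38 in HP RNA (SE 0.05, adjusted p = 1.41e-05) and 0.44 in total RNA (SE 0.04, adjusted p = 2.09e-07, edgeR), the highest of the 40 in total RNA. SYVN1 had 0.25 in HP RNA (adjusted p = 0.00718) and 0.28 in total RNA (adjusted p = 4.15e-05). Its locus overlaps FAU, an abundant ribosomal protein gene, on the same strand.

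EDEM1, a lectin that trims mannose on misfolded glycoproteins, had −0.25 in HP RNA (adjusted p = 0.0444) and −0.17 in total RNA (adjusted p = 0.0278). In HP RNA its call was lost without siHNRNPU replicate 1 (adjusted p = 0.218) or replicate 2 (0.0762) and without siCtr replicate 1 (0.115) or replicate 3 (0.0816). In total RNA it was lost without siCtr replicate 1 (0.0637), siHNRNPU replicate 2 (0.182) or siCtr replicate 3 (0.123). With DESeq2 as the test EDEM1 was called in neither fraction. Its call was also lost in HP RNA with upper-quartile factors or no filter, and in total RNA in 1 fit over all 12 libraries. HERPUD1, which assembles the ligase complex, SEL1L, the adaptor of SYVN1, DERL2, another derlin, and OS9, a glycan-reading lectin, were called in neither fraction. Their log2 fold changes were 0.04 for HERPUD1, −0.10 for SEL1L, 0.12 for DERL2 and 0.14 for OS9 in HP RNA. In total RNA they were 0.11 for HERPUD1, −0.07 for SEL1L, 0.09 for DERL2 and 0.11 for OS9. HERPUD1 was uneven in siCtr cells, with 96.1, 74.1 and 73.6 CPM in HP RNA and 62.9, 52.8 and 51.4 CPM in total RNA. It passed the threshold without siCtr replicate 1 in HP RNA (adjusted p = 0.0209) and in total RNA (0.00311), and in total RNA also without siHNRNPU replicate 3 (0.0489). OS9 did so in HP RNA without siHNRNPU replicate 1 (0.0245) or siCtr replicate 3 (0.0394), and in total RNA without siHNRNPU replicate 1 (0.0134) or siCtr replicate 2 (0.0429), and SEL1L in total RNA without siCtr replicate 1 (0.0333).

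Subunits of single complexes diverged at the ER membrane. Signal peptidase has accessory subunits encoded by SPCS1, SPCS2 and SPCS3. SPCS3 had 106, 90.1 and 104 CPM in siHNRNPU HP RNA, against 234, 215 and 229.5 CPM in siCtr HP RNA. In total RNA SPCS3 had 98.6, 89.6 and 92.8 CPM with siHNRNPU, against 219.6, 210.0 and 222 CPM with siCtr. The highest siHNRNPU library was less than 50% of the lowest siCtr library in each fraction. The log2 fold change was −1.21 in HP RNA (SE 0.06, adjusted p = 8.78e-11) and −1.22 in total RNA (SE 0.05, adjusted p = 2.47e-12, edgeR), or 2.31-fold and 2.33-fold lower. SPCS1, in contrast, had 133, 142 and 138 CPM in siHNRNPU HP RNA, against 97.4, 121 and 104 CPM in siCtr HP RNA. It rose (0.33 in HP RNA, adjusted p = 0.000594, and 0.20 in total RNA, adjusted p = 0.000285), and its locus overlaps GLT8D1 and NEK4 on the opposite strand. SPCS2 was not called, with 0.05 in HP RNA (95% interval −0.09 to 0.18) and −0.03 in total RNA (−0.16 to 0.09).

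The TRAP complex, which sits beside Sec61 and aids the entry of some proteins, showed the same split. SSR1 rose (0.23 in HP RNA, adjusted p = 0.000932, and 0.27 in total RNA, adjusted p = 2.21e-05, edgeR), and SSR2 rose (0.24, adjusted p = 0.00111, and 0.19, adjusted p = 0.000696). SSR3 had 270.5, 261 and 256 CPM in siHNRNPU HP RNA, against 308.5, 347 and 315 CPM in siCtr HP RNA. In total RNA SSR3 had 267, 259 and 258 CPM with siHNRNPU, against 294, 308.5 and 309.5 CPM with siCtr. It fell by 0.33 in HP RNA (SE 0.05, adjusted p = 5.38e-05) and by 0.22 in total RNA (SE 0.04, adjusted p = 0.000161, edgeR) on the log2 scale. Of the Sec61 channel, SEC61B rose (0.24 in HP RNA, adjusted p = 0.00848, and 0.14 in total RNA, adjusted p = 0.00898). Without siCtr replicate 1 the adjusted p of SEC61B in HP RNA was 0.0501. The pore subunit SEC61A1 had −0.01 in HP RNA (95% interval −0.13 to 0.11) and 0.02 in total RNA (−0.08 to 0.13). SEC61G had 0.21 in HP RNA (adjusted p = 0.0589) and 0.08 in total RNA (adjusted p = 0.199), and in HP RNA it passed the threshold without siCtr replicate 2 (adjusted p = 0.013). SEC62 and SEC63, which serve entry after translation, had −0.06 and −0.09 in HP RNA and −0.06 and −0.11 in total RNA and were not called. SEC63 in total RNA passed the threshold without siCtr replicate 3 (adjusted p = 0.0164).

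Strings that an siRNA could bind by its seed were sought because the strongest decline was in a single subunit. A match to bases 2 to 8 of the antisense strand was GTATGCT for hnRNP U siRNA 1, TTGTAGT for hnRNP U siRNA 2 and CCCAAAT for the control siRNA, sought on the transcript strand of canonical 3′ UTRs. SPCS3 and SEL1L held 2 matches each to siRNA 1 and PDIA3 and ERO1A 1 each, 4 of the 40 genes (10.0%), against 7.31% of the genes tested with a 3′ UTR. Matches to siRNA 2 stood in DNAJB9, ATF6, CREB3L2, SSR1 and SSR3 (12.5%, against 13.1%). Matches to the control siRNA stood in HSP90B1, CANX, ATF6, CREB3L2, HERPUD1, SEC63 and SSR1 (17.5%, against 15.2%). The matches to siRNA 1 and that of DNAJB9 to siRNA 2 are given with up to 10 bases on each side, the match in capitals, 5′ to 3′ on the transcript, and the GRCh38 coordinates are those of the match.
DNAJB9 at chr7:108574030-108574036 on the plus strand: aaaaatgattTTGTAGTgttgaaatca
PDIA3 at chr15:43772699-43772705 on the plus strand: ttatatccagGTATGCTacaagttctt
ERO1A at chr14:52640363-52640369 on the minus strand: tttgcatcaaGTATGCTagtcatcctt
SEL1L at chr14:81472909-81472915 on the minus strand: tggttatcctGTATGCTgtaatatacc
SEL1L at chr14:81472035-81472041 on the minus strand: cagcttggaaGTATGCTtagattaagt
SPCS3 at chr4:176329209-176329215 on the plus strand: aataattgtgGTATGCTttccatttac
SPCS3 at chr4:176332118-176332124 on the plus strand: tccagagactGTATGCTcctatactag

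Of the 4 genes with a match to siRNA 1, SPCS3 and ERO1A fell in both fractions and SEL1L and PDIA3 were not called. Over all tested genes with such a match, HP RNA had 56.9% lower and 10.1% higher, against 28.6% and 26.2% of the genes without one. In total RNA 59.9% were lower and 12.8% higher, against 31.5% and 28.7% without one. For siRNA 2 the share lower was 40% with a match and 29.3% without one in HP RNA, and 42.1% and 32.3% in total RNA. Among the members with a match to siRNA 2, DNAJB9, CREB3L2 and SSR3 fell and ATF6 and SSR1 rose. For the control siRNA the share lower was 32.1% with a match and 30.4% without one in HP RNA, and 34.6% and 33.4% in total RNA. The part of these matches in any single result was not tested.

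Translational efficiency (HP/total, the share of a transcript found on heavy polysomes relative to its level) was compared between the siRNAs by an interaction term fitted to the 12 libraries. None of the 40 genes was called by edgeR, where 0.163% of all genes tested were (26 of 15920). In this fit, which had no block, none of the 40 had an unadjusted p under 0.05, against 1120 of all genes tested. DESeq2, also without a block, called 0 of the 40, with 0 at an unadjusted p under 0.05. The smallest adjusted p among the 40 was 0.736. The log2 fold change in HP/total ran from −0.23 for ERO1B to 0.16 for SEC61G, with a median of 0.04, the same as over all genes. That median was 0.01 with DESeq2 size factors (all genes 0.00), and over fits that left out 1 library it ran from −0.04 without siHNRNPU HP replicate 2 (all genes −0.04) to 0.08 without siCtr HP replicate 3 (all genes 0.04). Without a block all 40 intervals included 0, and 39 lay within 0.5 of it. With the culture (siRNA and replicate number) as a block, 0 of the 40 were called (smallest adjusted p = 0.178, edgeR). The unadjusted p of edgeR was then under 0.05 for 2141 of all genes tested. Among the 40 this held for HSP90B1 (0.00701), ERO1A (0.0101), SPCS1 (0.0217), CRELD2 (0.0243), PDIA3 (0.0361) and HSPA5 (0.0368).

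With the culture as a block, SPCS1 and HSP90B1 had unadjusted p of 0.0217 and 0.00701 in HP/total by edgeR. Without a block, the intervals of the widest departures all included 0. ERO1B had −0.23 in HP/total (95% interval −0.54 to 0.08, adjusted p = 0.811), SDF2L1 −0.11 (−0.31 to 0.08, adjusted p = 0.857) and SSR3 −0.08 (−0.22 to 0.06, adjusted p = 0.856, edgeR). On the other side SEC61G had 0.16 (−0.08 to 0.39, adjusted p = 0.83), SPCS1 0.15 (−0.02 to 0.33, adjusted p = 0.761) and HSP90B1 0.15 (−0.03 to 0.33, adjusted p = 0.774, edgeR). SPCS3, the gene with the strongest decline, had 0.04 in HP/total (−0.13 to 0.21). HSPA5 had 0.11 (−0.08 to 0.29), XBP1 −0.05 (−0.20 to 0.10) and DNAJB9 0.09 (−0.19 to 0.37).

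RNA G-quadruplexes (RG4s), folds of G-rich RNA that the study examined, were searched for in canonical transcripts, a match being 4 stretches of 3 or more G separated by loops of 1 to 7 bases. A match stood in 6 of the 40 genes (15%), against 26.7% of protein-coding genes tested. Only the first match from the 5′ end was placed, so further matches downstream are not listed. CANX, CRELD2 and SEC63 held the first match in the 5′ UTR, ATF6B in the 3′ UTR, and CREB3L2 and EDEM1 in the coding sequence. The HP/total median was 0.04 for the 6 and 0.05 for the other 34. The first matches of CRELD2, CANX, SEC63 and ATF6B are shown because they lie in untranslated regions, with each G run in capitals (GRCh38, transcript strand).
CRELD2 at chr22:49918684-49918704 on the plus strand: GGGagcGGGtGGGcggccGGG
CANX at chr5:179699056-179699074 on the plus strand: GGGcGGGaaGGGGcacGGG
ATF6B at chr6:32115343-32115362 on the minus strand: GGGagtaaGGGaGGGtGGGG
SEC63 at chr6:107958069-107958090 on the minus strand: GGGccGGGGcgttGGGagcGGG

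Most of these genes differed between HP and total RNA under both siRNAs, and most of those that differed were higher in HP RNA. In siHNRNPU cells 28 of the 40 were higher in HP than in total RNA and 3 lower (31 called, 77.5%), where 68.1% of all genes tested were called, 34.4% higher and 33.7% lower. In siCtr cells 28 were higher and 4 lower (32 called, 80.0%), where 65.1% of all genes were called, 33.1% higher and 32% lower. Of the 40, 27 were higher and 3 lower under both siRNAs, and the share of all genes doing so was not computed. The median log2 ratio between HP and total RNA was 0.30 in siHNRNPU cells and 0.25 in siCtr cells, against −0.02 and −0.03 over all genes tested and 0.07 and 0.07 over protein-coding genes. With upper-quartile factors in place of TMM, 24 were higher and 6 lower in siHNRNPU cells and 21 higher and 4 lower in siCtr cells. All genes tested then had 4640 higher and 6249 lower in siHNRNPU cells, and 4405 and 5939 in siCtr cells. With a minimum count of 50, 24 of the 40 were higher and 4 lower in siHNRNPU cells, and 22 and 4 in siCtr cells. Of 12744 genes tested there, 4675 were higher and 4925 lower in siHNRNPU cells, and 4550 and 4615 in siCtr cells. The comparisons in the 2 kinds of cells use separate libraries. A difference from all genes was not tested.

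**Figure D3:**
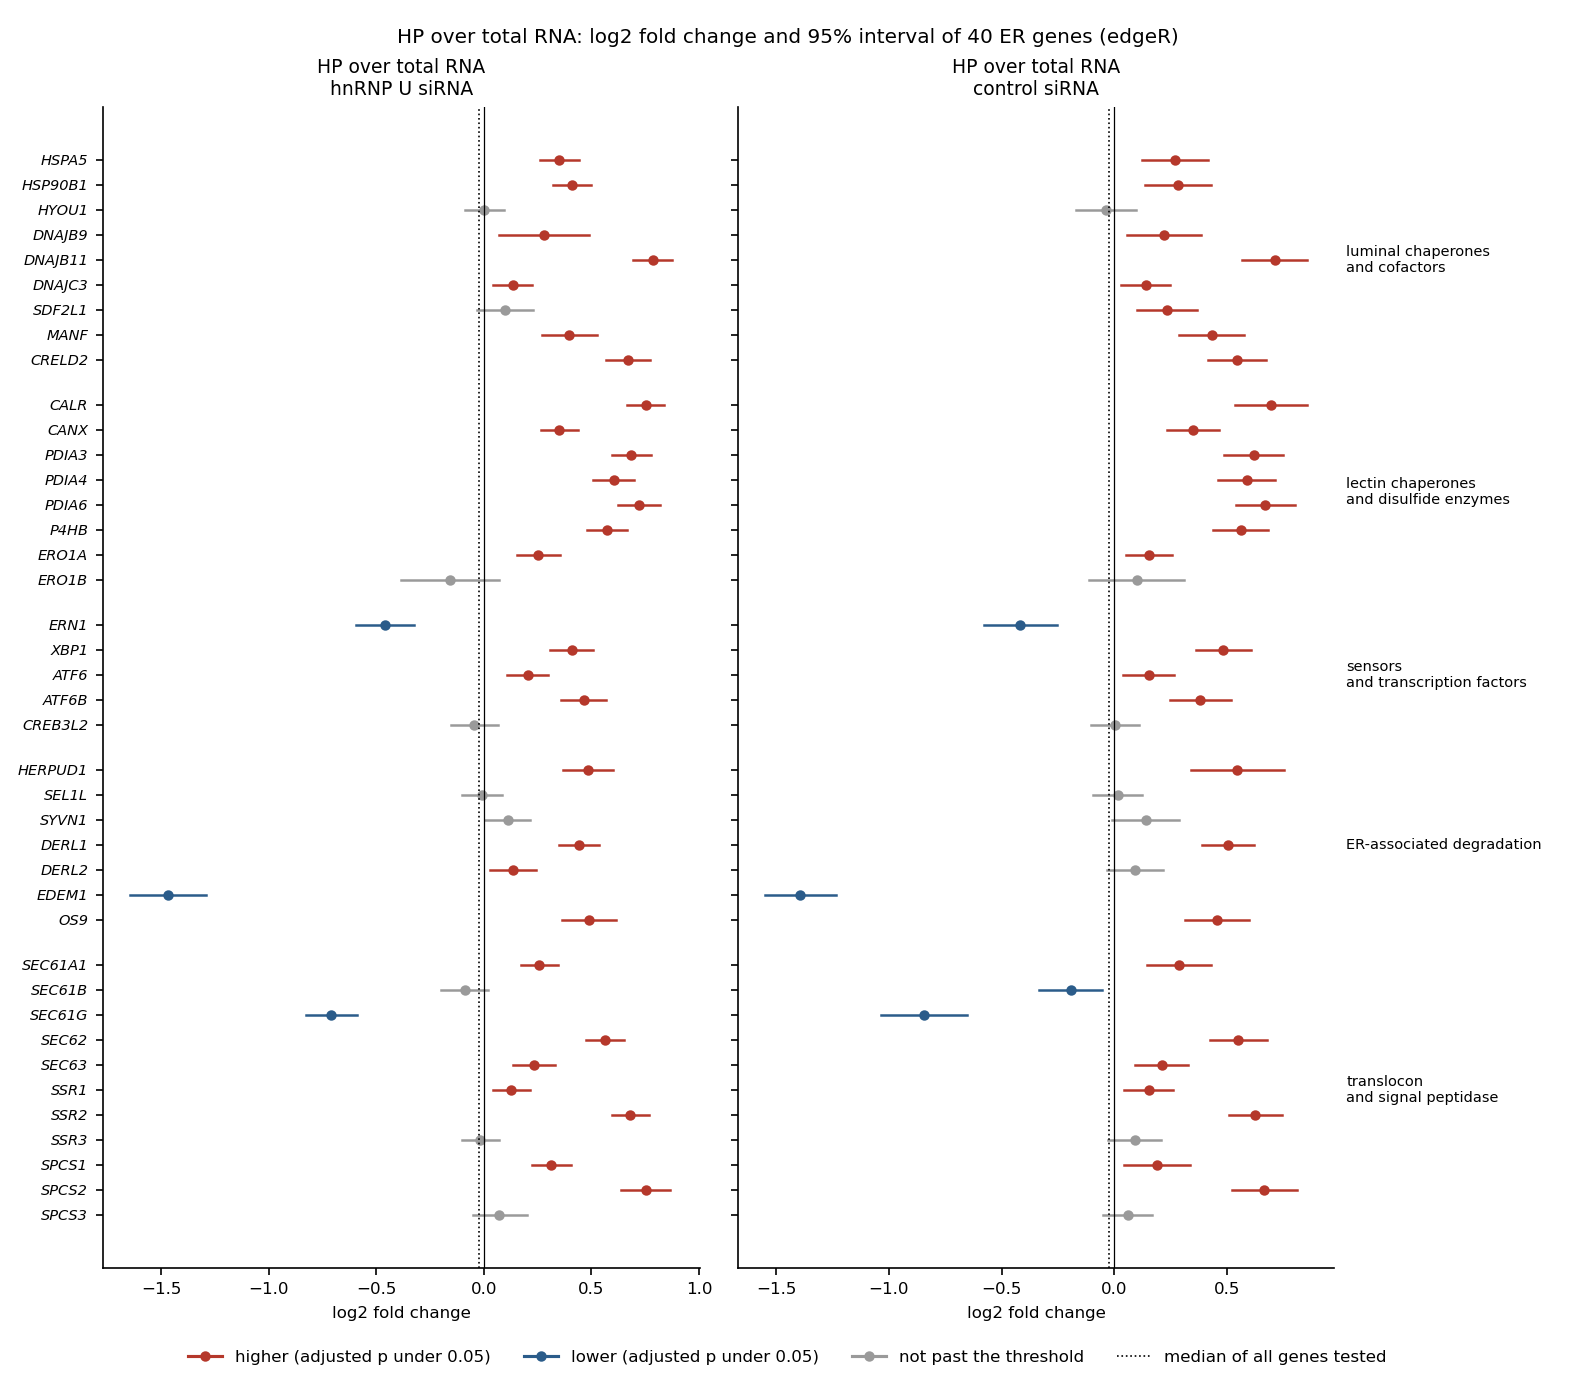
Log2 fold change of HP over total RNA with its 95% interval (horizontal axis) for each of the 40 ER genes (rows, grouped by role), in siHNRNPU cells and siCtr cells, from edgeR fits to 3 libraries per condition. Most lectin chaperones and disulfide enzymes lie above 0.3 in both, and EDEM1, SEC61G and ERN1 lie below 0 in both.

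The lectin chaperones and disulfide enzymes had the highest median ratio of the 5 roles. Of the 8, 7 were higher in HP RNA under each siRNA, ERO1B being the exception, with medians of 0.59 in siHNRNPU cells and 0.57 in siCtr cells. All genes tested had 34.4% higher in siHNRNPU cells and 33.1% in siCtr cells. CALR had 1691, 1854 and 1794 CPM in siHNRNPU HP RNA, against 1019.6, 1046 and 1054.5 CPM in siHNRNPU total RNA. In siCtr cells CALR had 1361, 1542 and 1673 CPM in HP RNA, against 859, 1005 and 968 CPM in total RNA. Every HP library stood above every total library, with log2 ratios of 0.75 in siHNRNPU cells (SE 0.04, adjusted p = 1.42e-11) and 0.69 in siCtr cells (SE 0.08, adjusted p = 1.15e-06, edgeR). PDIA6 had 465.5, 508 and 515 CPM in siHNRNPU HP RNA, against 284, 298 and 308 CPM in siHNRNPU total RNA. In siCtr cells PDIA6 had 432, 472 and 513 CPM in HP RNA, against 284, 304 and 303 CPM in total RNA. The log2 ratio of PDIA6 was 0.72 in siHNRNPU cells and 0.67 in siCtr cells, without overlap of the fractions. PDIA3 had 0.69 and 0.62, PDIA4 0.60 and 0.59 and P4HB 0.57 and 0.56 in siHNRNPU and siCtr cells.

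Of the luminal chaperones, 7 of 9 were higher in HP RNA in siHNRNPU cells and 8 of 9 in siCtr cells. All genes tested had 34.4% and 33.1% higher there. DNAJB11 had the highest ratio of the 40 under each siRNA, 0.79 in siHNRNPU cells (SE 0.04, adjusted p = 1.46e-11) and 0.71 in siCtr cells (SE 0.07, adjusted p = 3.12e-07, edgeR). HSPA5 had 0.35 in siHNRNPU cells (adjusted p = 7.43e-07) and 0.27 in siCtr cells (adjusted p = 0.00306, edgeR), and HSP90B1 had 0.41 and 0.28. CRELD2 had 0.67 in siHNRNPU cells (adjusted p = 6.67e-10) and 0.54 in siCtr cells (adjusted p = 1.36e-06, edgeR). HYOU1 was level between the fractions, with 0.00 in siHNRNPU cells (95% interval −0.09 to 0.09) and −0.04 in siCtr cells (−0.17 to 0.10). For DNAJB9 the call was lost in siHNRNPU cells without total replicate 2 (adjusted p = 0.0623), total replicate 3 (0.0832) or HP replicate 2 (0.149), and in siCtr cells without HP replicate 2 (0.0522) or total replicate 3 (0.145). For DNAJC3 it was lost in siCtr cells without total replicate 1 (0.11), HP replicate 2 (0.0645), HP replicate 3 (0.081) or total replicate 3 (0.0574). SDF2L1, not called in siHNRNPU cells (adjusted p = 0.171), passed the threshold there without HP replicate 2 (0.00348).

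Among the sensors, ERN1 mRNA was depleted from HP RNA while the transcription factor mRNAs were enriched or level. ERN1 had 17.6, 16.4 and 18 CPM in siHNRNPU HP RNA, against 23.5, 23.8 and 23.0 CPM in siHNRNPU total RNA. In siCtr cells ERN1 had 19.5, 16.6 and 16.2 CPM in HP RNA, against 23.2, 23.4 and 23.1 CPM in total RNA. The log2 ratio was −0.46 in siHNRNPU cells (SE 0.06, adjusted p = 4.25e-06) and −0.42 in siCtr cells (SE 0.08, adjusted p = 0.000204, edgeR). XBP1 had 0.41 and 0.48, ATF6B 0.46 and 0.38, and ATF6 0.20 and 0.15 in siHNRNPU and siCtr cells. In siCtr cells the call for ATF6 was lost without HP replicate 1 (adjusted p = 0.0721), HP replicate 3 (0.0672), total replicate 2 (0.0632) or total replicate 3 (0.0928). CREB3L2 had −0.04 in siHNRNPU cells (95% interval −0.15 to 0.06) and 0.00 in siCtr cells (−0.10 to 0.11).

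EDEM1 was the most depleted of the 40. It had 7.6, 8.81 and 9.43 CPM in siHNRNPU HP RNA, against 24.8, 21.8 and 23.9 CPM in siHNRNPU total RNA. In siCtr cells EDEM1 had 10.4, 9.69 and 9.96 CPM in HP RNA, against 27.0, 24.6 and 27.3 CPM in total RNA. The log2 ratio was −1.47 in siHNRNPU cells (SE 0.08, adjusted p = 2.14e-11) and −1.39 in siCtr cells (SE 0.07, adjusted p = 9.73e-10, edgeR), 2.77-fold and 2.63-fold lower in HP RNA. The other degradation genes did not share this. HERPUD1 had 0.48 and 0.54, OS9 0.49 and 0.46, and DERL1 0.44 and 0.50 in siHNRNPU and siCtr cells. SEL1L had −0.01 in siHNRNPU cells (95% interval −0.10 to 0.09) and 0.01 in siCtr cells (−0.09 to 0.12). DERL2 was called in siHNRNPU cells (0.14, adjusted p = 0.0261), but not without total replicate 2 (0.124) or total replicate 3 (0.0562). In siCtr cells SYVN1 had 0.14 (adjusted p = 0.0955), or 0.0266 with the replicate number as a block. There SYVN1 also passed the threshold without HP replicate 1 (0.00309). In siHNRNPU cells it had 0.11 (adjusted p = 0.0527) and passed with the block (0.0127) or without HP replicate 1 (0.0208) or HP replicate 3 (0.0499).

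Of the translocon and signal peptidase, 7 of 11 were higher in HP RNA under each siRNA. All genes tested had 34.4% higher in siHNRNPU cells and 33.1% in siCtr cells. SEC61G, the smallest Sec61 subunit, had 31.7, 34.0 and 32.9 CPM in siHNRNPU HP RNA, against 55.6, 53.1 and 49.8 CPM in siHNRNPU total RNA. In siCtr cells SEC61G had 22.8, 31.1 and 29.3 CPM in HP RNA, against 52.7, 48.2 and 48.9 CPM in total RNA. The fractions did not overlap, and the log2 ratio was −0.71 in siHNRNPU cells (SE 0.06, adjusted p = 2.24e-09) and −0.84 in siCtr cells (SE 0.09, adjusted p = 9.84e-07, edgeR). SPCS2 had 43, 43.9 and 40.9 CPM in siHNRNPU HP RNA, against 25.1, 25.2 and 24.4 CPM in siHNRNPU total RNA, a log2 ratio of 0.75 (SE 0.05, adjusted p = 5.27e-10, edgeR). In siCtr cells the ratio of SPCS2 was 0.67 (adjusted p = 6.2e-07, edgeR). SSR2 had 0.68 and 0.62, SEC62 0.56 and 0.55 and SEC61A1 0.26 and 0.29 in siHNRNPU and siCtr cells.

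SPCS3 was level between fractions in both cell populations, with 0.07 in siHNRNPU cells (95% interval −0.05 to 0.20) and 0.06 in siCtr cells (−0.05 to 0.17). In siHNRNPU cells it passed the threshold without HP replicate 2 (adjusted p = 0.014). SEC61B was lower in siCtr HP RNA (−0.19, adjusted p = 0.0167), a call lost without HP replicate 1 (0.075) or total replicate 3 (0.0584), and had −0.09 in siHNRNPU cells (adjusted p = 0.147). SSR3 had −0.02 in siHNRNPU cells (adjusted p = 0.751) and 0.09 in siCtr cells (adjusted p = 0.162, or 0.0386 with the replicate number as a block). In siCtr cells the call for SPCS1 was lost without total replicate 1 (0.0531), HP replicate 2 (0.152) or total replicate 3 (0.0509). That for SSR1 was lost without total replicate 1 (0.0668) or HP replicate 3 (0.0628). That for ERO1A was lost without total replicate 1 (0.0574).

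Transcript size varied with these ratios. SEC61G and SEC61B have coding sequences of 207 and 291 nt, and the 257 protein-coding genes tested with coding sequences up to 300 nt had a median log2 ratio of −0.69 in siHNRNPU cells and −0.74 in siCtr cells. EDEM1 and ERN1 have coding sequences of 1974 and 2934 nt in transcripts of 6113 and 7895 nt. Genes with coding sequences over 1200 and up to 2400 nt, as in EDEM1, had a median of 0.16 under each siRNA, and those with longer ones, as in ERN1, had a median of −0.10. Across the 40 genes, which share the same 12 libraries, Spearman's rho between transcript length and the log2 ratio was −0.44 in siHNRNPU cells and −0.47 in siCtr cells. Across 12758 protein-coding genes it was −0.27 and −0.25. With coding length it was −0.05 and −0.10 across the 40, and −0.11 and −0.10 across the protein-coding genes. The median transcript length was 3390.5 nt for the 40 genes and 3364 nt for the protein-coding genes tested.

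Levels spanned a wide range. Per kilobase of the canonical transcript, CALR was highest in siHNRNPU HP RNA at 936 CPM, followed by P4HB at 826, HSP90B1 at 569.7, HSPA5 at 329.9 and CANX at 325 CPM, whereas ERN1 had 2.19, EDEM1 1.41 and ERO1B 1.31 CPM per kilobase. The standard deviations in CPM of HSPA5 and CANX were 57.4 and 68.5 on means of 1294 and 1597, so their order per kilobase lay within the spread of the 3 libraries. The genes with ERSE or ERSE-II in the promoter were spread over this range. Of the 11, 5 were higher and 2 lower in HP RNA with siHNRNPU (63.6% called, against 51.7% of all genes tested). In total RNA 6 were higher and 0 lower (54.5% called, against 57.3% of all genes tested, 28% higher and 29.3% lower). Of the 26 with a promoter and neither motif, HP RNA had 7 higher and 6 lower, and total RNA 9 higher and 6 lower. In total RNA 7 of the 11 had an unadjusted p under 0.05 in either direction by edgeR, against 9823 of the 15920 genes tested. The difference between these groups was not tested.

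The 7 wider lists place the 40 genes among related pathways. Of the PERK branch and integrated stress response, 16 genes of 18 were tested, 9 higher against 2 lower in HP RNA and 10 higher against 1 lower in total RNA, with medians of 0.31 and 0.22. These were 56.2% higher and 12.5% lower in HP RNA, where all genes had 25.5% and 26.3%, and 62.5% higher and 6.25% lower in total RNA, where all genes had 28% and 29.3%. DDIT4, an inhibitor of mTORC1 signalling, rose by 1.08 in HP RNA (adjusted p = 1.88e-05) and 1.01 in total RNA (adjusted p = 7.9e-05, edgeR). DDIT3 (CHOP), a transcription factor linked to cell death in prolonged stress, rose by 1.10 in HP RNA (adjusted p = 7.68e-06) and 0.95 in total RNA (adjusted p = 0.000312). CHAC1, which degrades glutathione, rose by 0.97 and 0.80 (adjusted p = 0.00519 in HP RNA and 0.0205 in total RNA). PPP1R15B, a subunit of the phosphatase that resets eIF2α, fell by 0.88 in HP RNA (adjusted p = 6.93e-10) and by 0.78 in total RNA (adjusted p = 1.44e-10, edgeR).

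Named after their values were seen, ATF4 had 0.50 in HP RNA (adjusted p = 1.44e-05) and 0.29 in total RNA (adjusted p = 0.0051), and EIF2AK3, which encodes PERK, had 0.00 and −0.04 and was not called in either. MBTPS1, a protease that cleaves ATF6, was lower (−0.15 in HP RNA, adjusted p = 0.0209, and −0.10 in total RNA, adjusted p = 0.0399). MBTPS2, the protease that completes that cleavage, had −0.03 and −0.01 and was not called. ATF4 was lower in HP than in total RNA, with log2 ratios of −1.20 in siHNRNPU cells and −1.41 in siCtr cells, and its HP/total change of 0.24 was not called (95% interval −0.03 to 0.50, adjusted p = 0.756, edgeR).

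**Figure D4:**
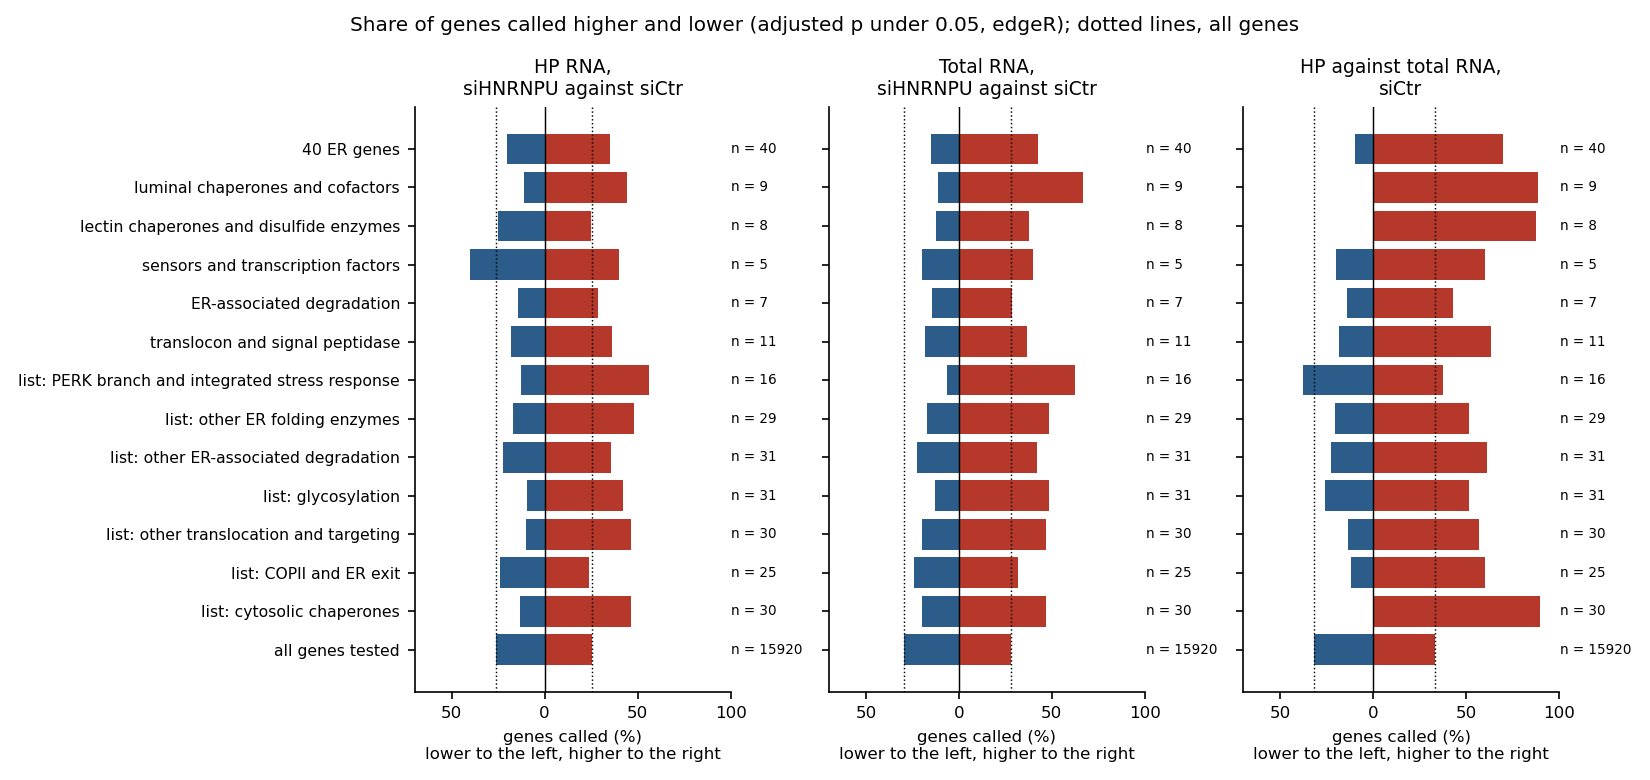
Percent of tested genes called higher (red, to the right) and lower (blue, to the left) at an adjusted p under 0.05 in HP RNA, in total RNA and between HP and total RNA of siCtr cells (horizontal axis), for the 40 ER genes, their 5 roles and 7 wider lists (rows, n tested beside each). Dotted lines mark the shares over all 15920 genes. The cytosolic chaperones reach 90.0% higher in HP RNA of siCtr cells.

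Over the other 6 lists the share higher with siHNRNPU ran from 24.0% to 48.3% in HP RNA and from 32.0% to 48.4% in total RNA, where all genes had 25.5% and 28%. The share lower ran from 9.68% to 24.0% in HP RNA and from 12.9% to 24.0% in total RNA, where all genes had 26.3% and 29.3%, and these differences from all genes were not tested. Of 29 other ER folding enzymes tested, HP RNA had 14 higher and 5 lower and total RNA had 14 higher and 5 lower (median log2 fold changes 0.13 and 0.13). FKBP10 and SERPINH1 (HSP47), which fold collagen, rose by 0.88 and 0.68 in HP RNA and by 0.77 and 0.67 in total RNA, TXNDC12, a thioredoxin-like protein, by 0.60 and 0.49, and CNPY3, a cofactor of HSP90B1, by 0.66 and 0.45. Of 31 other degradation genes, HP RNA had 11 higher and 7 lower and total RNA had 13 higher and 7 lower (medians 0.07 and 0.04). UBXN6, a cofactor of the p97 ATPase, rose by 1.44 in HP RNA and 1.27 in total RNA, and AUP1, which recruits a ubiquitin-conjugating enzyme, by 0.72 and 0.64, while ERLIN1, which targets IP3 receptors for degradation, fell by 1.00 and 0.91 and EDEM2, a relative of EDEM1, by 0.39 and 0.40.

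Of 31 glycosylation genes tested, HP RNA had 13 higher and 3 lower and total RNA had 15 higher and 4 lower (medians 0.17 and 0.13). MOGS, the glucosidase that begins the calnexin cycle, rose by 1.07 and 1.05, DPM3, a subunit of dolichol-phosphate mannose synthase, by 0.75 and 0.73 and ALG3, a mannosyltransferase, by 0.42 and 0.38, and STT3B, a catalytic subunit of oligosaccharyltransferase, fell by 0.58 and 0.54 in HP and total RNA. Of 30 other translocation and targeting genes, HP RNA had 14 higher and 3 lower and total RNA had 14 higher and 6 lower (medians 0.13 and 0.08). SRP9, a protein of the signal recognition particle, fell by 0.90 in HP RNA and by 0.90 in total RNA, while SEC61A2, a paralogue of SEC61A1, rose by 0.31 and 0.41, EMC7, a subunit of the ER membrane protein complex, by 0.40 and 0.39 and HSPA13, an Hsp70 relative, by 0.50 and 0.39. Of 25 COPII and ER exit genes, HP RNA had 6 higher and 6 lower and total RNA had 8 higher and 6 lower (medians 0.00 and 0.01). SEC23A, a coat subunit, fell by 0.63 and 0.57, and KDELR3, a retrieval receptor, by 0.23 and 0.19, while SEC31A, an outer coat subunit, and the cargo lectin LMAN2 each rose by 0.25 and 0.24.

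Of 30 cytosolic chaperones, HP RNA had 14 higher and 4 lower and total RNA had 14 higher and 6 lower (medians 0.13 and 0.08). HSPA1B, an inducible Hsp70, rose by 0.56 and 0.42, HSPH1, an Hsp110, by 0.41 and 0.42 and DNAJB1, an Hsp40, by 0.37 and 0.38, while HSPA4L, another Hsp110, fell by 0.61 and 0.50 in HP and total RNA. HSPA1B has a near-identical copy, so its counts are uncertain. Between fractions the cytosolic chaperones had the highest share of the 7 lists enriched in HP RNA, with 28 of 30 higher in HP RNA in siHNRNPU cells and 27 of 30 in siCtr cells, 0 lower in either, and medians of 0.73 and 0.69, above the 0.30 and 0.25 of the 40 ER genes. All genes tested had 34.4% higher in siHNRNPU cells and 33.1% in siCtr cells. Median ratios of the other 6 lists lay from 0.19 to 0.34 in siHNRNPU cells and from 0.19 to 0.30 in siCtr cells.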

How the data were processed

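Poly(A)-selected directional libraries of HCT116 total and HP RNA were sequenced by the authors from 1 end over 75 bp. According to the methods, Trim Galore removed bases under quality 30 and reads shorter than 18 nt, STAR aligned the rest to hg38, and raw counts per gene were taken over GENCODE release 43. The submitters' processing notes name CASAVA 1.8. Which STAR version and which strand setting were used is not given in the sources used here. Members other than those named with the results also overlap exons of other genes, which leaves their counts uncertain. For example, SSR1 overlaps CAGE1 and HSP90B1 overlaps MIR3652 on the same strand. On the opposite strand HSP90B1 overlaps UQCC6, DNAJB11 overlaps TBCCD1 and DERL1 overlaps TBC1D31. The authors deposited the raw count table with no normalization, and ERCC spikes were not used here.

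Of 62703 identifiers, 62639 were found in GENCODE release 44 on the same build, which gave symbols, lengths and UTRs. Counts of the 12 libraries (30305012 to 39761103) were filtered with filterByExpr (minimum count of 10 over the 4 conditions), scaled by TMM and tested with edgeR 4.0.16 in R 4.3.3 (quasi-likelihood F-test, with p-values adjusted by Benjamini-Hochberg over the 15920 genes tested and a threshold of 0.05), with no block. Total and HP RNA were fitted apart, HP/total was the interaction over 12 libraries, and HP was set against total RNA within each siRNA. Because TMM centres each comparison, values are relative to the typical gene. SEs are the log2 fold change over the root of F. CPM were scaled over all 12 libraries together, so ratios of CPM in HP RNA differ slightly from fitted changes. Promoters were RefSeq's (GRCh38.p14). Motifs were searched with Python 3.11.15.

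The 40 genes and the wider lists were chosen with earlier results of these data known. All 40 could be named. Values by library were given for genes called in HP or total RNA whose log2 fold change with siHNRNPU reached 0.5 in size, the 3 highest and 3 lowest of each comparison, HSPA5 and XBP1, and genes not called with the siRNA were given by their fold changes. Up to 4 genes were named per wider list, those with the largest changes among genes called in total RNA whose mean log2 CPM reached 3.

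Alternatives were DESeq2 1.42.0 as the test, its size factors, upper-quartile factors, no filter, 1 fit over all 12 libraries, a minimum count of 50, the replicate number or the culture as a block, and leaving out each library. Same-numbered HP and total libraries deviated together over genes in siCtr cells (r = 0.222, 0.243 and 0.184) and in siHNRNPU cells (r = 0.196, 0.086 and 0.22). The number was therefore taken to pair them in the alternatives with a block, and the main fits left this pairing out. Sample titles also give the 4 libraries of a number 1 set name, without saying what a set shares. Protein sequences were not used here.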

Additional observations from a re-analysis of the deposited data

How the results depend on the processing

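No call on the 40 genes turned its direction under any alternative run. Calls that held in every alternative numbered 18 of 22 in HP RNA, 17 of 23 in total RNA, 27 of 31 for HP over total RNA in siHNRNPU cells and 24 of 32 in siCtr cells. In HP/total 0 of the 40 were called in any alternative, with a smallest adjusted p of 0.313 under a replicate block and 0.178 under a block by culture. Genes called ranged from 21 to 27 in HP RNA and 18 to 28 in total RNA over the alternatives that kept every library, and leaving out 1 library gave 19 to 23 and 18 to 25. For HP over total RNA these ranges were 28 to 32 and 29 to 32 in siHNRNPU cells, and 25 to 34 and 27 to 31 in siCtr cells. With the replicate number as a block 27 genes were called in HP RNA and 28 in total RNA, 32 for HP over total RNA in siHNRNPU cells and 34 in siCtr cells. In HP RNA each siHNRNPU library deviated most like the siCtr library of its number (r = 0.096, 0.189 and 0.199). In total RNA replicate 1 did not (0.014, 0.09 and 0.113 for equal numbers). In siHNRNPU cells HP and total libraries of equal number had r = 0.196, 0.086 and 0.22. Titles give libraries of 1 number a common set name and do not say that it marks a shared day. Beyond the genes named with the results, the block changed no other call. Uncalled estimates changed sign in 121 instances, 78 of them in HP/total. With RG4 loops of up to 12 bases 16 of the 40 genes held a match, against 5494 of 12758 protein-coding genes tested (43.1%). The lower share of the 40 genes with loops of up to 7 bases (15%, against 26.7%) therefore depended on the loop limit. Allowing 1 mismatch in CCACG gave ERSE in 12 of 37 promoters (32.4%), against 349 of the 27305 genes in the promoter table (1.28%). These differences in share were not tested. Over all genes, HP/total calls went to 49 with DESeq2, 61 with no filter, 78 with a replicate block and 140 with a block by culture. Counts were not limiting for most members, whereas ERO1B, EDEM1 and DNAJB9 rested on the fewest. A change in all ER transcripts relative to total RNA content was not measured.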
